A study of Homo sapiens with 2 samples.

Results

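Mitochondrial carriers of the SLC25 family were described in PLC/PRF/5, a line established from a human liver cancer. The members were the probe sets annotated to a single gene symbol beginning with SLC25A and a digit, which gave 100 of 54675 probe sets on the array. They carried 49 symbols, of which 44 were carrier genes with 94 probe sets and 5 were antisense or pseudogene symbols with 6. The tested RNA came from hepatospheres, cancer spheroids that were exposed to cisplatin and doxorubicin together and are labelled chemoresistant. The RNA set against it came from differentiated cells, made by giving serum to spheroids and letting them adhere. Each group was 1 Affymetrix U133 array of 1 line, so spheroid growth, serum and attachment changed together, and the labels leave unstated whether the differentiated cells had met the drugs. With no replicates, no difference carries an error or a test, and each value describes these 2 arrays.

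SLC25 proteins sit mostly in the inner mitochondrial membrane and exchange nucleotides, phosphate, organic acids, amino acids, coenzymes and metal ions between the cytosol and the matrix. All are encoded in the nucleus and are imported after translation through the outer membrane and the carrier translocase of the inner membrane. In liver the family links mitochondria to the urea cycle, gluconeogenesis, fatty acid oxidation and the transfer of reducing equivalents by the malate-aspartate shuttle.

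Levels are given as linear MAS5 signals, and differences as log2 signal in hepatospheres minus differentiated cells. A gene is represented by its brightest probe set, the one with the highest mean log2 signal over both arrays. A signal under the floor of 84.1, the higher of the median signals of the 2 arrays, was raised to it, so that a fold with 1 array under the floor is a lower bound written as "at least". Genes under the floor on both arrays have no difference. Signal reflects each probe set's own brightness as well as RNA, so signals are compared between arrays and never between genes.

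Of the 44 carrier genes, 38 reached the floor on at least 1 array, 33 of them on both, 3 only in hepatospheres and 2 only in differentiated cells, where 9.89% and 3.45% of all measured genes did so. Only SLC25A42 and SLC25A27 were at least 2-fold higher in hepatospheres. SLC25A18, SLC25A15, SLC25A10, SLC25A13 and SLC25A46 were at least 2-fold lower, and the other 31 stayed within 2-fold. Of all 12766 genes measured this way, 12.5% were at least 2-fold higher and 8.83% at least 2-fold lower. The carriers' shares were 5.26% and 13.2%. These shares were not tested against each other. In bulk RNA, fewer cells that express a gene and less of its RNA per cell cannot be told apart. At 4-fold the carriers had 1 gene higher and 1 lower, where 2.99% and 1.05% of all genes passed. Over probe sets, 3 of 71 measured ones (4.23%) were at least 2-fold higher, against 11.6% of all measured probe sets, and 7 (9.86%) were at least 2-fold lower, against 9.59%.

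**Figure D1:**
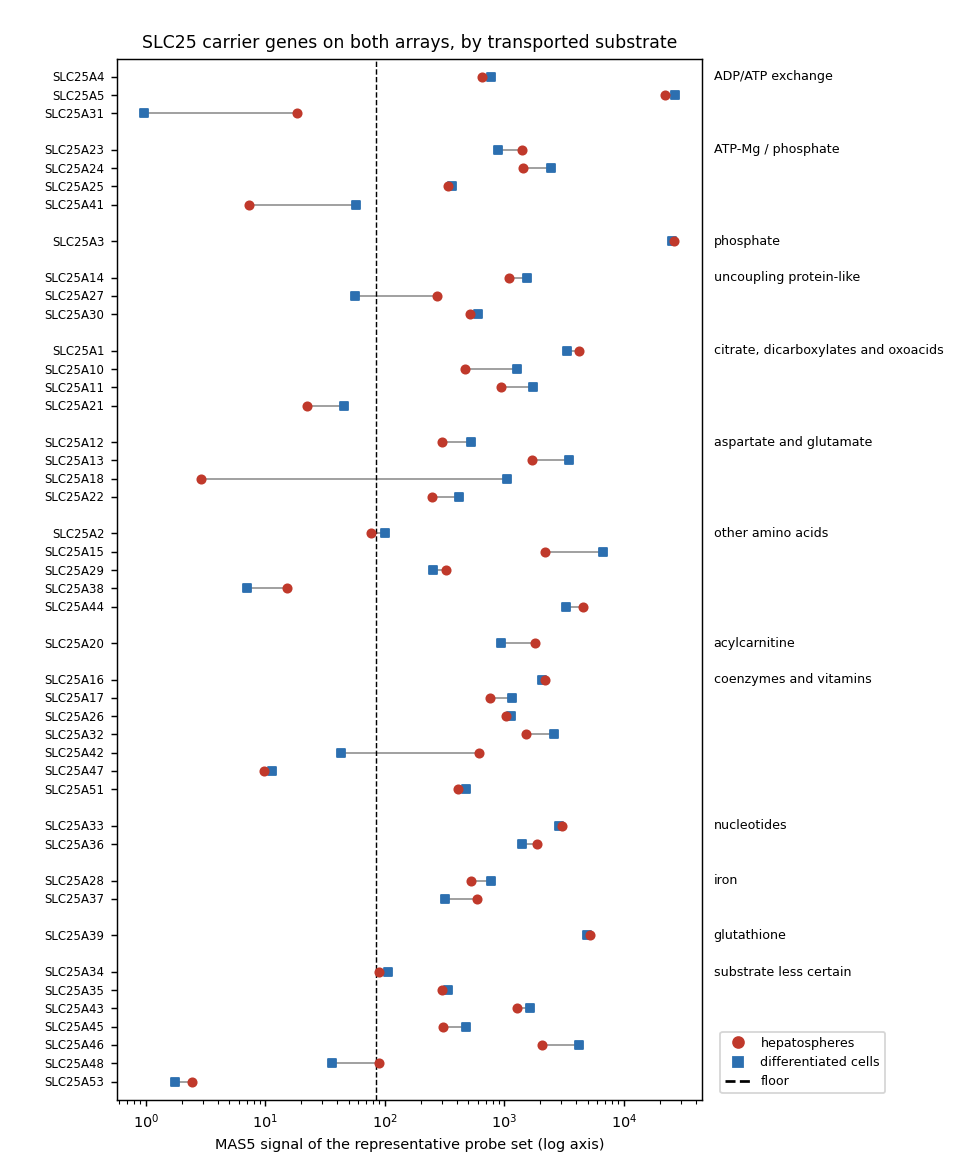
MAS5 signal of the brightest probe set of each of the 44 SLC25 carrier genes on the hepatosphere array (red circles) and the differentiated-cell array (blue squares), on a log axis and grouped by substrate, with 1 array per group and the floor of 84.1 as a dashed line. Most pairs lie close together, whereas SLC25A18 crosses the floor downwards and SLC25A42 and SLC25A27 cross it upwards in hepatospheres; SLC25A2 and SLC25A48 cross it by little.

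Most carriers leaned to the lower side. The median difference over the 38 genes was -0.24, with 14 genes (36.8%) above 0, where all measured genes had a median of 0.05 and 52.7% above 0. The quartiles of the carriers lay at -0.72 and 0.10. Subunits of the respiratory chain and of ATP synthase, the latter using ADP and phosphate that carriers supply, had a median of 0.08 over 73 measured genes. Of these, 1 was at least 2-fold higher and 0 lower. Mitochondrial ribosomal proteins had a median of -0.43 over 75 genes, with 0 higher and 8 lower. Solute carriers of the other families, most of which act at the plasma membrane or on vesicles, had a median of 0.13 over 199 genes, with 37 higher and 16 lower. None of these differences between groups could be tested with 1 array on each side.

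**Figure D2:**
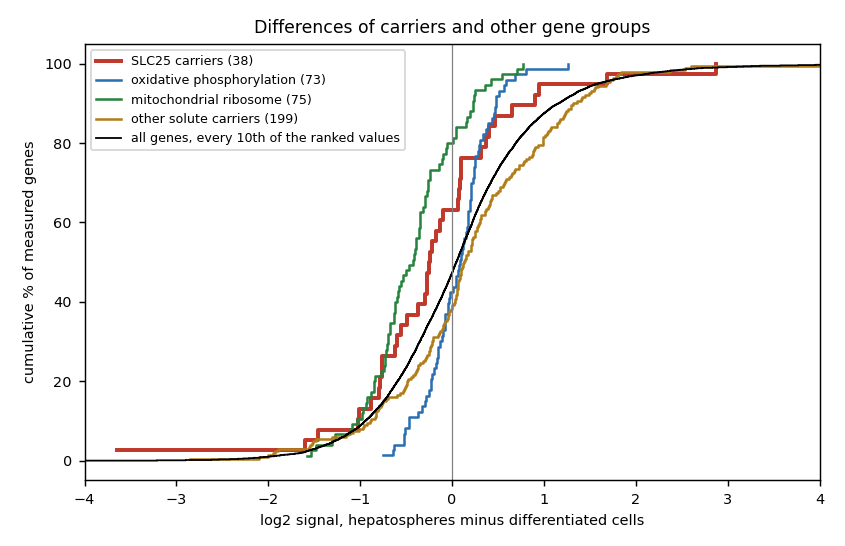
Cumulative share of measured genes against the log2 difference, hepatospheres minus differentiated cells, for 38 SLC25 carriers, 73 oxidative phosphorylation genes, 75 mitochondrial ribosomal protein genes, 199 other solute carriers and all genes (every 10th ranked value); differences beyond the axis limits are not shown. The carrier curve runs left of that of all genes in its middle part and between the mitochondrial ribosome and oxidative phosphorylation curves around the medians.

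Both arrays read as hepatic. Of 12 hepatocyte markers, 10 had a value and all of these passed the floor, among them albumin (ALB) at 27887 in hepatospheres and 10276 in differentiated cells. Of these 10, 4 were at least 2-fold higher and 1 lower, alpha-fetoprotein (AFP), at 433 in hepatospheres and 2451 in differentiated cells, and their summed signals were 224233 in hepatospheres and 111916 in differentiated cells. Of 3 leukocyte markers 0 passed it, with summed signals of 92.2 in hepatospheres and 132 in differentiated cells. Of 3 endothelial markers 1 passed, PECAM1, at 3787 in hepatospheres and 3388 in differentiated cells, and VWF and CDH5 lay under the floor at 18.2 and 15.9 in hepatospheres and at 16.6 and 20.0 in differentiated cells. Of 5 fibroblast markers 3 passed, with summed signals of 1391 in hepatospheres and 426 in differentiated cells, led by COL3A1 at 679 and 42.6. No marker read 0. The spiked poly(A) control RNAs read 2.04-fold higher on the hepatosphere array. The 3' to 5' signal ratio of ACTB was 2.64 in hepatospheres and 1.48 in differentiated cells, whereas that of GAPDH was 1.04 and 0.99. The part of these controls in the carrier differences was not tested. Scaling to the poly(A) controls moved the median of all genes to -0.93. It gave 1 carrier at least 2-fold higher and 22 lower, where 3.22% and 46.5% of all genes were. Median centring moved that median to -0.19 and gave 2 carriers higher and 10 lower, where 9.09% and 14.6% of all genes were. The carrier median minus that of all genes was -0.29 as reported and stayed between -0.32, with the poly(A) controls, and -0.14, with loess, under the 10 alternatives. Directions below are those of the deposited signals, without subtracting the median of all genes, so signs near 0 depend on the scaling. SLC25A3, for example, stood at 0.07 as reported and at -0.18 with median centring.

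Sequences upstream of 3 carriers whose brightest probe sets stood at least 2-fold apart are shown because they differ in composition. Each is the 250 bases before the annotated start in RefSeq (GRCh38.p14), plus strand, 5' to 3'. SLC25A18 lies at chr22:17563248-17563497, SLC25A15 at chr13:40789361-40789610 and SLC25A42 at chr19:19063744-19063993. Capitals mark CpG dinucleotides in SLC25A18 and SLC25A15, and CCAAT on either strand in SLC25A42.
SLC25A18: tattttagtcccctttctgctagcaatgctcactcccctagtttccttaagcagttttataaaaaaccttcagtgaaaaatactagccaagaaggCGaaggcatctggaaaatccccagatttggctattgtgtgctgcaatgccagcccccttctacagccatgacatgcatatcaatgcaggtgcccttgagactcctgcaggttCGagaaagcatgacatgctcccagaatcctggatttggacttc
SLC25A15: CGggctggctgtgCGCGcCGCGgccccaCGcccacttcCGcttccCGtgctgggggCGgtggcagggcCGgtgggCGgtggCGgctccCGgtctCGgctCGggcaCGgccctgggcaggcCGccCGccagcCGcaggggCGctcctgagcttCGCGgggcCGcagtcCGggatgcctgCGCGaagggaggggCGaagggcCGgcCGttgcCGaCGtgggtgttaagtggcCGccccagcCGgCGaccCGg
SLC25A42: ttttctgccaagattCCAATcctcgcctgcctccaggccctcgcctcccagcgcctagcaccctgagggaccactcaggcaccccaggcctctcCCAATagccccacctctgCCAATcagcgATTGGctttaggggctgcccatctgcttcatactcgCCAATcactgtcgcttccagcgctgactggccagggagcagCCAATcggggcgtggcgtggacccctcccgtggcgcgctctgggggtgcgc

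The SLC25A18 window held 2 CpG and 46% G and C, and no other of the 37 carriers in the promoter table had so few CpG. Of protein-coding genes, 17.0% had a window with at most 2. The SLC25A15 window held 35 CpG and 79.6% G and C, and 6 carriers and 9.57% of protein-coding genes had a window with at least that many. Windows of protein-coding genes held a median of 16 CpG. The SLC25A42 window held 6 CCAAT matches, whose first bases lie at -235, -156, -138, -128, -92 and -51 relative to the start. As many were found in 0.126% of protein-coding genes, and the next carrier had 3. A CCAAT match was present in 19 of 37 carriers (51.4%), against 40.2% of protein-coding genes and 37.0% of all genes with a window. The E-box CACGTG was present in 8 carriers (21.6%), against 9.73% of protein-coding genes and 7.73% of all genes, and CCGGAAG, the ETS core, in 11 (29.7%), against 14.0% and 10.2%. TGCGCA, the core of the site of the mitochondrial regulator NRF1, was present in 4 carriers (10.8%), against 10.9% and 8.28%, and AGGTCA, a nuclear receptor motif, also in 4, against 13.6% and 14.6%. Both strands were searched, and matches are letters only. A carrier with several annotated starts, such as SLC25A22, SLC25A25 or SLC25A26, was counted if any of its windows held a match. More starts thus give more chances of a match.

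Of the 4 aspartate and glutamate carriers, all stood below 0 on their brightest probe sets and 2 were at least 2-fold lower, with a median of -0.91. SLC25A18, a glutamate carrier, read 2.88 in hepatospheres and 1056 in differentiated cells on its single probe set. It was at least 12.5-fold lower, the widest difference of any carrier, and its signal in hepatospheres lay far under the floor. SLC25A18 passed the floor through differentiated cells alone, which fixes its direction, so it adds nothing to the shared direction of the 4. SLC25A22, the paralog that also carries glutamate with a proton, read 247 in hepatospheres and 419 in differentiated cells, a difference of -0.76. SLC25A12 and SLC25A13 exchange matrix aspartate for cytosolic glutamate in the malate-aspartate shuttle, and SLC25A13, known as citrin, is the main form in liver. SLC25A12 read 302 in hepatospheres and 525 in differentiated cells on its brightest probe set (-0.80), and 374 against 413 on the other (-0.14). SLC25A13 depended on the probe set. The brightest read 1705 in hepatospheres and 3457 in differentiated cells, 2.03-fold lower. The other pair read 486 and 366 in hepatospheres, against 327 and 327 in differentiated cells, which put them at 0.57 and 0.16, on the opposite side. With the mean over its probe sets SLC25A13 stood at -0.09.

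Carriers of citrate, dicarboxylates and oxoacids did not share a direction. SLC25A10, which exchanges malate or succinate for phosphate, read 465 in hepatospheres and 1281 in differentiated cells, 2.76-fold lower, on 1 probe set. SLC25A11, the oxoglutarate-malate exchanger of the malate-aspartate shuttle, was lower on both of its probe sets, at 939 and 745 in hepatospheres against 1730 and 1190 in differentiated cells, without reaching 2-fold (-0.88 and -0.68). SLC25A1, which exports citrate for fatty acid and sterol synthesis, read 4181 in hepatospheres and 3366 in differentiated cells, a difference of 0.31. SLC25A21, the oxodicarboxylate carrier, stayed under the floor at 22.4 in hepatospheres and 45.8 in differentiated cells.

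Among carriers of other amino acids, the ornithine carrier SLC25A15 stood apart. It brings ornithine into the matrix for the urea cycle and takes citrulline out, and its loss causes a human urea cycle disorder. It read 2198 in hepatospheres and 6669 in differentiated cells on the brightest probe set and 287 against 837 on the other. Both were lower by about the same factor, 3.03-fold and 2.91-fold. SLC25A2, the second ornithine carrier, read 77.4 in hepatospheres and 101 in differentiated cells, near the floor. SLC25A29, which carries basic amino acids, was higher on the 2 probe sets past the floor on both arrays (0.37 and 0.60). Its brightest read 325 in hepatospheres and 252 in differentiated cells. A further one, at 93.2 in hepatospheres and 54.2 in differentiated cells, passed the floor through hepatospheres alone, which fixes its direction. SLC25A44, a branched-chain amino acid carrier, read 4542 and 2270 in hepatospheres against 3279 and 1737 in differentiated cells (0.47 and 0.39). SLC25A38, the glycine carrier that serves heme synthesis, read 15.3 in hepatospheres and 6.97 in differentiated cells, under the floor.

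The coenzyme and vitamin carriers held the member furthest above 0. SLC25A42, which brings coenzyme A into the matrix, read 615 in hepatospheres and 42.9 in differentiated cells and was at least 7.31-fold higher. Its dimmer probe sets read 140 and 126 in hepatospheres against 22.0 and 58.9 in differentiated cells, at least 1.67-fold and 1.50-fold higher, and the remaining one stayed near 0 on both arrays (1.98 and 2.28). These 3 passed the floor through hepatospheres alone, so their shared direction is fixed by the floor and adds nothing to the brightest one. Averaged over its 4 probe sets on the log2 scale, SLC25A42 read 68.1 in hepatospheres and 18.9 in differentiated cells, under the floor, so the 2-fold call rests on the brightest probe set. SLC25A16, also linked to coenzyme A in the matrix, showed 2173 in hepatospheres and 2084 in differentiated cells on its brightest probe set, a cross-matching one. Its other 3 probe sets were lower, with differences of -0.73 to -0.39. SLC25A32, the folate carrier, read 1533 in hepatospheres and 2598 in differentiated cells (-0.76), and SLC25A17, a peroxisomal cofactor carrier, 763 and 1154 (-0.60). SLC25A26, which imports S-adenosylmethionine, and SLC25A51, the NAD carrier, stood at -0.14 and -0.24, and the other SLC25A51 probe set at 0.09. SLC25A47, a carrier enriched in normal liver, read 9.72 in hepatospheres and 11.3 in differentiated cells, under the floor.

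SLC25A20, the carnitine-acylcarnitine carrier that admits fatty acids for oxidation, read 1822 in hepatospheres and 945 in differentiated cells. It was 1.93-fold higher, short of 2-fold, and stood between 0.70 with median centring and 1.06 with loess under the alternatives, except the poly(A) scaling, which put it at -0.08.

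The iron carriers, or mitoferrins, leaned in opposite directions. SLC25A37 read 590 in hepatospheres and 317 in differentiated cells on its brightest probe set, 1.86-fold higher. Of its 8 measured probe sets, 7 were higher, by 0.31 to 1.01 with 1 of them past 2-fold, at 399 in hepatospheres and 199 in differentiated cells. The remaining one read 82.4 in hepatospheres and 108 in differentiated cells, at least 1.29-fold lower, and passed the floor through differentiated cells alone, which fixes its direction. The others read 161.9, 401, 321, 274 and 246 in hepatospheres against 119.6, 276, 184, 204 and 199 in differentiated cells, in that order. The brightest SLC25A37 probe set and the one past 2-fold were cross-matching, and without such probe sets SLC25A37 stood at 0.54. SLC25A28 was lower on both measured probe sets, at 527 and 341 in hepatospheres against 775 and 504 in differentiated cells, with a difference of -0.56 on each.

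Carriers that resemble uncoupling proteins included the second member past 2-fold on the higher side. SLC25A27 read 271 in hepatospheres and 56.3 in differentiated cells and was at least 3.22-fold higher. Another pair of its probe sets read 106 and 87.9 in hepatospheres against 19.8 and 56.4 in differentiated cells, hardly past the floor, and the other two stayed under it. The mean over its 5 probe sets on the log2 scale was equivalent to 63.6 in hepatospheres and 20.7 in differentiated cells, under the floor, and SLC25A27 stood at 0.83 when the floor was raised to the 60th percentile. SLC25A14 was lower on both probe sets (-0.49 and -0.45) and SLC25A30 stood at -0.22.

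Carriers of adenine nucleotides and phosphate stayed within 2-fold on their brightest probe sets. SLC25A5 and SLC25A4, which exchange ADP for ATP, read 22085 and 648 in hepatospheres against 27015 and 769 in differentiated cells (-0.29 and -0.25). SLC25A31, the form best known from testis, lay under the floor. SLC25A3, the phosphate carrier, read 26468 in hepatospheres and 25177 in differentiated cells, a difference of 0.07. Its second probe set read 50.2 in hepatospheres and 222 in differentiated cells, at least 2.63-fold lower, so the probe sets of SLC25A3 disagree. Among calcium-regulated ATP-Mg carriers, SLC25A24 read 1440 in hepatospheres and 2476 in differentiated cells (-0.78), its other probe set lying under the floor on both arrays, and SLC25A25 stood at -0.10. SLC25A23 stood at 0.66 on one probe set and -0.43 on the other, and SLC25A41 lay under the floor.

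Pyrimidine nucleotide carriers and the glutathione carrier lay above 0 but within 2-fold. SLC25A36 was higher on all 3 measured probe sets (0.11 to 0.45), SLC25A33 stood at 0.10 and SLC25A39, which imports glutathione, at 0.09. Of the members whose substrate is less certain, SLC25A46, an outer membrane protein of mitochondrial dynamics, was lower on both probe sets. It read 2075 and 824 in hepatospheres against 4203 and 1046 in differentiated cells, 2.03-fold and 1.27-fold lower. SLC25A43 and SLC25A34 stood at -0.37 and -0.27, and SLC25A45 at -0.62 on its brightest probe set and 0.13 on the other. SLC25A48 was at the floor (at least 1.07-fold higher), and SLC25A53 lay under it. SLC25A35 stood at -0.18 on its brightest probe set and at 0.99 on the other, which read 321 in hepatospheres and 161 in differentiated cells.

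**Figure D3:**
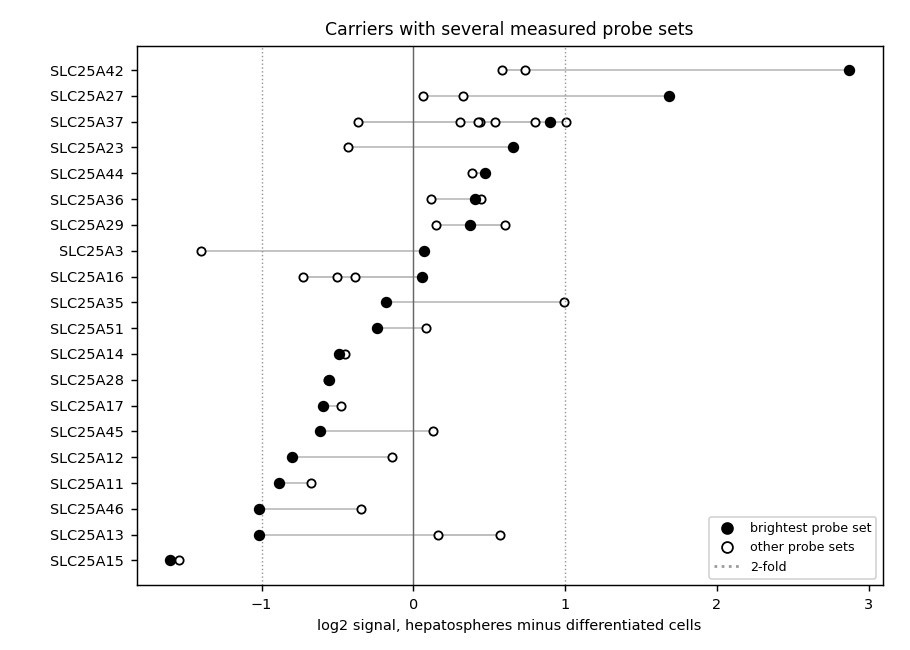
Log2 difference, hepatospheres minus differentiated cells, of every measured probe set of the 20 carriers that have at least 2, with the brightest filled, the others open and 2-fold marked by dotted lines. The 2 SLC25A15 probe sets nearly coincide, whereas those of SLC25A13, SLC25A3 and SLC25A35 spread across 0.

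Probe sets of one gene give the only internal gauge of measurement scatter here. Of the 20 carriers with at least 2 measured probe sets, 12 had all of them on one side of 0 and 8 had them on both sides. The 12 include SLC25A42 and SLC25A27, whose measured probe sets all passed the floor through hepatospheres alone. Their shared direction is fixed by the floor and is no check. Where the 2 brightest probe sets were above the floor on both arrays, they differed by a median of 0.33 in 17 carriers and by 0.34 in 5206 genes. They had opposite signs in 35.3% and 25.7%. A carrier difference under 0.33 is thus no wider than the usual gap between probe sets of a gene. The 90th percentile of this gap was 1.12 in the carriers and 1.13 in all genes, wider than a 2-fold difference. SLC25A13 and SLC25A46, both at -1.02, lie within it. The 18 remaining measured carriers, SLC25A10 and SLC25A18 among them, had 1 measured probe set and no such check.

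No measured probe set of the 5 symbols that are not carrier genes was at least 2-fold apart. SLC25A25-AS1 read 300.4 in hepatospheres and 424 in differentiated cells (-0.50), and SLC25A5-AS1 read 99.1 and 112 (-0.18). SLC25A21-AS1, SLC25A48-AS1 and SLC25A3P1 lay under the floor on both arrays.

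Genes of the pathways that the carriers serve were listed by role. Of 96 listed genes 86 had a value, and of the 81 measured ones 3 were at least 2-fold higher and 10 lower (3.70% and 12.3%, against 12.5% and 8.83% of all genes), with a median of -0.10. The carrier import machinery lay lowest. All 10 measured genes were below 0 on their brightest probe sets, with a median of -0.70, and 3 were at least 2-fold lower. TIMM8A, an intermembrane space chaperone, read 193 in hepatospheres and 701 in differentiated cells, 3.63-fold lower. TIMM10, a chaperone that escorts carriers across the intermembrane space, read 2785 in hepatospheres and 8452 in differentiated cells, 3.03-fold lower, on a cross-matching probe set. Its other probe set, not a cross-matching one, was 4.31-fold lower. TOMM22, a receptor of the outer membrane, was 2.21-fold lower, at 2867 in hepatospheres and 6323 in differentiated cells. The dimmest of its 3 probe sets, all of them cross-matching, read 235 in hepatospheres and 227 in differentiated cells. TOMM70, the outer membrane receptor for carriers, and TIMM22, the channel that inserts them, stood at -0.29 and -0.70. TOMM20, another outer membrane receptor, stood at -0.38 on its brightest probe set, but the other read 10490 in hepatospheres and 5532 in differentiated cells, 1.90-fold higher.

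Factors of mitochondrial biogenesis were below 0 in 11 of 11 measured genes on their brightest probe sets (median -0.43), with 2 at least 2-fold lower. TFAM, which packages mitochondrial DNA and acts in its transcription, read 682 in hepatospheres and 2031 in differentiated cells, 2.98-fold lower. Its other measured probe sets were also lower, and every measured TFAM probe set was a cross-matching one. TWNK, the mitochondrial helicase, read 471 in hepatospheres and 1212 in differentiated cells, 2.57-fold lower. The coactivator PPARGC1A stood at -0.43 and the transcription factor NRF1 at -0.52. Under the 10 alternatives the median of the import genes stayed below that of all genes, by -0.81 to -0.57, and that of the biogenesis factors by -0.61 to -0.31. Quantile normalization and loess each left 10 of 11 biogenesis factors below 0, and the mean over probe sets 7 of 8 and 9 of 10 import genes.

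**Figure D4:**
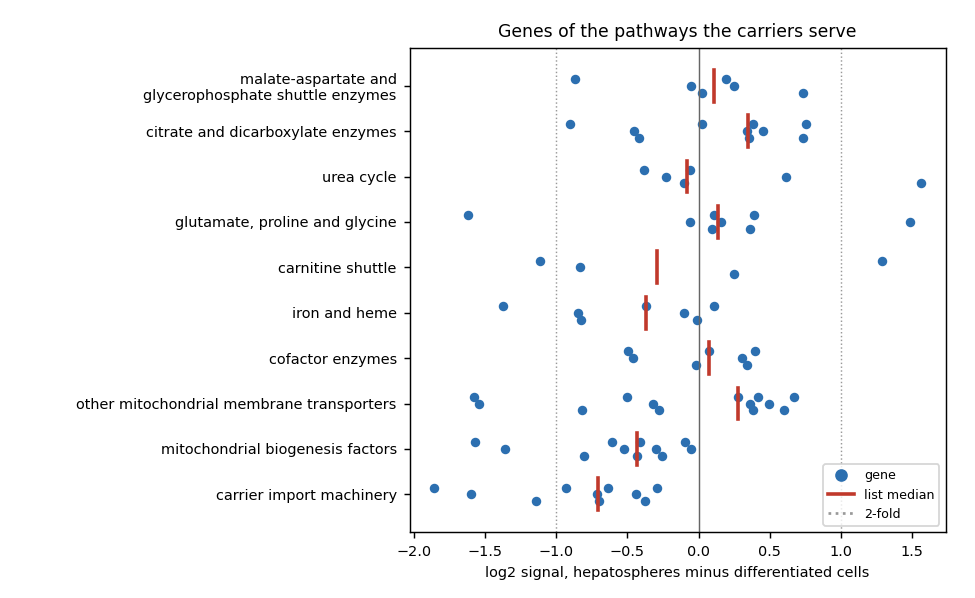
Log2 difference, hepatospheres minus differentiated cells, of each measured gene (points) in 10 lists of pathway genes, with list medians as red bars and 2-fold as dotted lines. All 10 genes of the carrier import machinery and all 11 biogenesis factors lie left of 0 on their brightest probe sets, whereas the enzyme lists straddle it.

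Enzymes on either side of the carriers mostly stayed within 2-fold. The shuttle enzymes had 0 of 6 past 2-fold, with MDH2, the mitochondrial malate dehydrogenase, at 0.74 and GPD2, the glycerophosphate dehydrogenase of the inner membrane, at -0.87. Citrate and dicarboxylate enzymes had 0 of 10, with the citrate cleaving enzyme ACLY at 0.74 and citrate synthase CS at -0.90. In the urea cycle, which SLC25A15 supplies, 1 of 6 was higher, namely ARG2, the mitochondrial arginase. It read 3056 in hepatospheres and 1032 in differentiated cells, 2.96-fold higher, on a cross-matching probe set, and its other probe set, at 864 in hepatospheres and 635 in differentiated cells, was 1.36-fold higher and short of the call. ARG1, the other arginase, read 138 in hepatospheres and 162 in differentiated cells (-0.23). CPS1, which makes carbamoyl phosphate, stood at -0.38, and ASS1 and ASL at -0.10 and -0.06. OTC, also of the urea cycle, lay under the floor at 6.88 in hepatospheres and 5.77 in differentiated cells. Of 8 genes of glutamate, proline and glycine metabolism, ALDH18A1, which starts proline synthesis from glutamate, was 2.81-fold higher, at 5507 in hepatospheres and 1963 in differentiated cells. GLDC, of the glycine cleavage system, was 3.08-fold lower, at 1310 in hepatospheres and 4032 in differentiated cells.

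In the carnitine shuttle around SLC25A20, the members went both ways. CRAT, which makes acetylcarnitine, read 1152 in hepatospheres and 470 in differentiated cells, 2.45-fold higher on its brightest probe set and 1.87-fold higher on the other, both of them cross-matching. CPT1A, the outer membrane palmitoyltransferase, read 2069 in hepatospheres and 4486 in differentiated cells, 2.17-fold lower, but only 2 of its 4 measured probe sets were lower. CPT2, which acts after the carrier, stood at -0.83. Iron and heme genes beside the mitoferrins were below 0 in 6 of 7. ABCB10, an inner membrane transporter linked to heme synthesis, was 2.59-fold lower, at 697 in hepatospheres and 1802 in differentiated cells. Its single probe set was a cross-matching one. FECH, which inserts iron into heme, stood at -0.82. Cofactor enzymes had 0 of 7 past 2-fold. Other transporters of mitochondrial membranes had 0 of 13 higher and 2 lower. LETM1, an inner membrane cation exchanger, was 2.99-fold lower, at 658 in hepatospheres and 1970 in differentiated cells, and the sideroflexin SFXN2 was 2.91-fold lower, at 454 and 1322. UCP2, a relative of the carriers named outside the SLC25A series, stood at 0.39, and UCP1 and UCP3 lay under the floor.

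**Figure D5:**
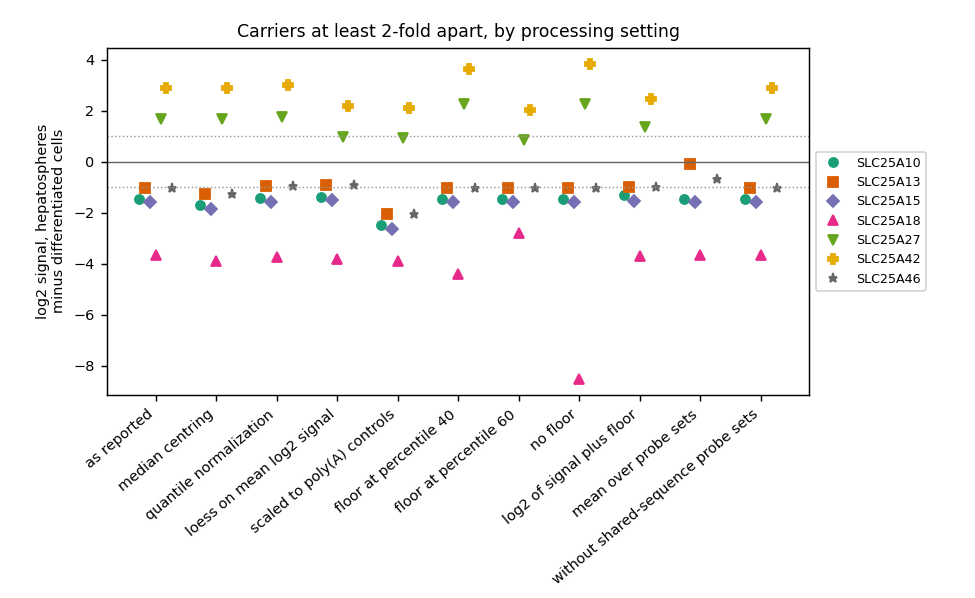
Log2 difference, hepatospheres minus differentiated cells, of the 7 carriers at least 2-fold apart, as reported and under 10 other processing settings, with 2-fold marked by dotted lines. SLC25A10, SLC25A15 and SLC25A18 stay past 2-fold in every setting, SLC25A42 in all 9 that measure it, and SLC25A13, SLC25A46 and SLC25A27 cross the line in some.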

How the data were processed

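Trizol was used to isolate total RNA and biotin to label it, per the labels' protocols. Each deposited value is an intensity, the MAS5 signal of a probe set, and MAS5 is the tool that the submitters' processing notes list. Which version and target were used is not given in the sources here. The 2% trimmed means were 500.1 on both arrays, so this statistic was matched between them, whereas the medians stayed apart at 84.1 in hepatospheres and 70.6 in differentiated cells, and weak signals are noisy because background was subtracted. Detection calls were not used. Precision is limited by the number of arrays.

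Probe sets were named through GEO's platform annotation: 41091 of 54675 had 1 symbol, 1801 several and 11721 none, beside 62 controls, and 41037 matched a RefSeq gene table by gene ID. A further carrier symbol is not reported here. The brightest probe set stood for each of 19775 genes, and at least 2-fold was the call. Differences were not tested. The procedure was tested on simulated data. Members and lists were chosen with earlier results of these data known. Named genes were all carriers, with every measured probe set for those past 2-fold and for those with 1 probe set past 2-fold and another on the opposite side of 0, and pathway genes past 2-fold, up to 4 per list. Other genes are named as examples and were chosen after their values were seen. Alternatives were 4 scalings, 4 treatments of the floor and 2 choices of probe set. Promoter windows come from RefSeq tables. Python 3.11.15, numpy 2.4.6, pandas 2.3.3, statsmodels 0.14.6 and matplotlib 3.10.9 were used.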

Additional observations from a re-analysis of the deposited data

How the results depend on the processing

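Each setting was changed alone. As reported, 2 carriers were at least 2-fold higher and 5 lower, with a median of -0.24, beside 3 and 10 pathway genes and 1601 and 1127 of all genes. Median centring gave 10 carriers lower, a carrier median of -0.50, 18 pathway genes lower and 1902 of all genes lower (14.6%). Scaling to the poly(A) controls gave 1 carrier higher, 22 lower and a median of -1.25, with 0 pathway genes higher and 50 lower. Of all genes, 399 were higher and 5764 lower there (3.22% and 46.5%). Genes on the higher side made up 58.7% of all genes 2-fold apart as reported, 38.3% with median centring and 6.47% with the poly(A) scaling. Quantile normalization and log2 of signal plus floor each gave 3 carriers lower, where 9.26% and 7.06% of all genes were. SLC25A13 (-0.97 and -0.98) and SLC25A46 (-0.98 and -0.99) then missed 2-fold. The floor at the 60th percentile gave 1 carrier higher, where 11.4% of all genes were. The mean over probe sets gave 0 carriers higher, where 11.4% of all genes were, because SLC25A42 and SLC25A27 no longer reached the floor. With that mean SLC25A3 turned to -1.04, SLC25A16 to -0.39, SLC25A24 to 0.74 and SLC25A35 to 0.41. Without shared-sequence (cross-matching) probe sets SLC25A3 stood at -1.40, its brighter probe set being left out. Of 55 pathway genes measured in that setting, 1 was higher and 10 lower, where 12.7% and 9.66% of all genes were. The lower pathway genes included 1 of 7 biogenesis factors and 2 of 5 import genes. SLC25A10, SLC25A15 and SLC25A18 kept their calls under all 10 alternatives, SLC25A42 under the 9 that measure it, SLC25A13 and SLC25A46 under 6 and SLC25A27 under 6 of 9. No paired analysis was possible because each group has 1 array. Signals near the floor, as for SLC25A27, limit what can be read from them.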
